A study of Mus musculus with 6 samples.

Results

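The collagen genes of the mouse were followed in injured spinal cord, with and without syringin. Members were all genes of the deposited table whose symbol has the form Col, number, a, number and whose mean over the 6 libraries was 10 counts or more; these were 43 genes of 37475, and all 43 passed the filter on low counts and were tested. The only gene of that name left out by the count minimum was Col10a1, with a mean of 8.67 counts, and the lowest member was Col17a1, with a mean of 20.8 counts. Of the 43, 11 encode chains of fibrillar collagens, 8 encode chains of basement membrane collagens (types IV, XV and XVIII), and 24 encode the other collagens. The membership rule used the mean level and not the treatment.

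The samples were spinal cord tissue of wild type mice taken 3 days after a contusion, a blunt impact, at the T10 level. Both groups were injured. The controls (SCI, called PBS here) received a daily intraperitoneal injection of phosphate-buffered saline, and the treated mice (SCI+Syr, called syringin here) received syringin, a plant phenylpropanoid glucoside, at 50 mg/kg by the same route. Each group held 3 biological replicates, numbered 1 to 3 in the labels. The age and sex of the mice are not stated, and uninjured cord was not analysed here.

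Collagens are extracellular proteins built of chains that wind around each other in a long rope-like helix, and the chains of 1 collagen type are encoded by separate genes. Fibrillar collagens assemble into the tough fibres of connective tissue and scar, while type IV collagen forms the sheet-like network of basement membranes, such as those around blood vessels and beneath the astrocyte endfeet at the cord surface. In the intact cord collagen lies mainly in the meninges, the vessels and the nerve roots; after injury, fibroblasts and perivascular cells add a collagen-rich scar in the lesion.

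Library totals were 65579117 to 78843034 estimated counts, and collagens took 0.282% to 0.446% of them. Among low values, a count of 4 was 1.51 times as frequent as the mean of its neighbours, so 1 fragment may add about 4 counts and the counting error may be larger than the totals imply. The libraries also differed in markers of tissue around the cord. Scn10a, a sodium channel gene of sensory ganglion neurons, had 45.4, 0.22 and 0 CPM (counts scaled to library size) in PBS libraries 1, 2 and 3 and 43.9, 0 and 12.0 CPM in syringin libraries 1, 2 and 3. Among 10 markers of the cord itself, the myelin gene Mbp was at 9333 CPM or more in every library. Of the 10 log2 fold changes 9 were negative. In the edgeR test below, 2 neuronal genes, Snap25 and Slc6a5, were lower with syringin, where 3.39% of all genes were. DESeq2 called 4 of the 10 lower, against 8.13% of all genes. The list was chosen with earlier results of these data known.

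In the main test the share of collagens that passed was near that of all genes, and most collagen fold changes were negative. In edgeR's quasi-likelihood test, with p-values adjusted over all genes by the method of Benjamini and Hochberg, 2 of the 43 collagens passed an adjusted p of 0.05, which is 4.65% of them against 5.01% of all 22114 genes tested. Both were lower with syringin (3.39% of all genes were): Col24a1 (log2 fold change -1.11 ± 0.22, SE) and Col25a1 (-1.19 ± 0.19). No collagen passed as higher (1.62% of all genes did). At an unadjusted edgeR p of 0.05, 3 of the 43 collagens were higher and 10 lower, where 11.5% and 12.1% of all genes were. DESeq2 called 14.4% of all genes. Its shares are over all 22114 genes, of which 3442 had no adjusted p and could not be called. It called 2 of the 43 collagens higher, Col2a1 and Col4a1 (6.29% of all genes), and 8 lower (8.13%). Limma-voom called 0 collagens higher, and Col24a1 and Col25a1 lower. The PBS and syringin CPM values did not overlap for 12 collagens, or 27.9% of members against 30% of all genes; 3 were higher (14.7% of all genes) and 9 lower (15.3%). The median log2 fold change was -0.19 over the collagens and 0.01 over all genes, and 34 of the 43 values were negative. The length and GC content of the transcripts predicted a median collagen shift of 0.043 to 0.076 in the PBS and of -0.084 to -0.027 in the syringin libraries on the log2 scale. Corrected for it, the class medians were 0.01 (fibrillar), 0.26 (basement membrane) and -0.21 (other), in place of -0.15, 0.14 and -0.31. With the replicate number as a block in the edgeR fit, 1 collagen was higher (Col18a1) and 6 were lower (Col9a2, Col19a1, Col22a1, Col24a1, Col25a1 and Col26a1), against 4.8% and 6.76% of all genes, or 11.6% in both directions. The calls changed in fits with 1 library left out, while over the 6 such fits the log2 fold change was -1.223 to -0.925 for Col24a1 and -1.32 to -1.065 for Col25a1. Without PBS library 3 edgeR called no gene of any kind (3449 genes had an unadjusted p under 0.05), and of the 2 collagens only Col25a1 passed without PBS library 2, syringin library 2 or syringin library 3. Neither passed without PBS library 1, where Col14a1 did; without syringin library 1, Col4a1 and Col4a2 passed as higher and Col22a1, Col24a1 and Col25a1 as lower.

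**Figure D1:**
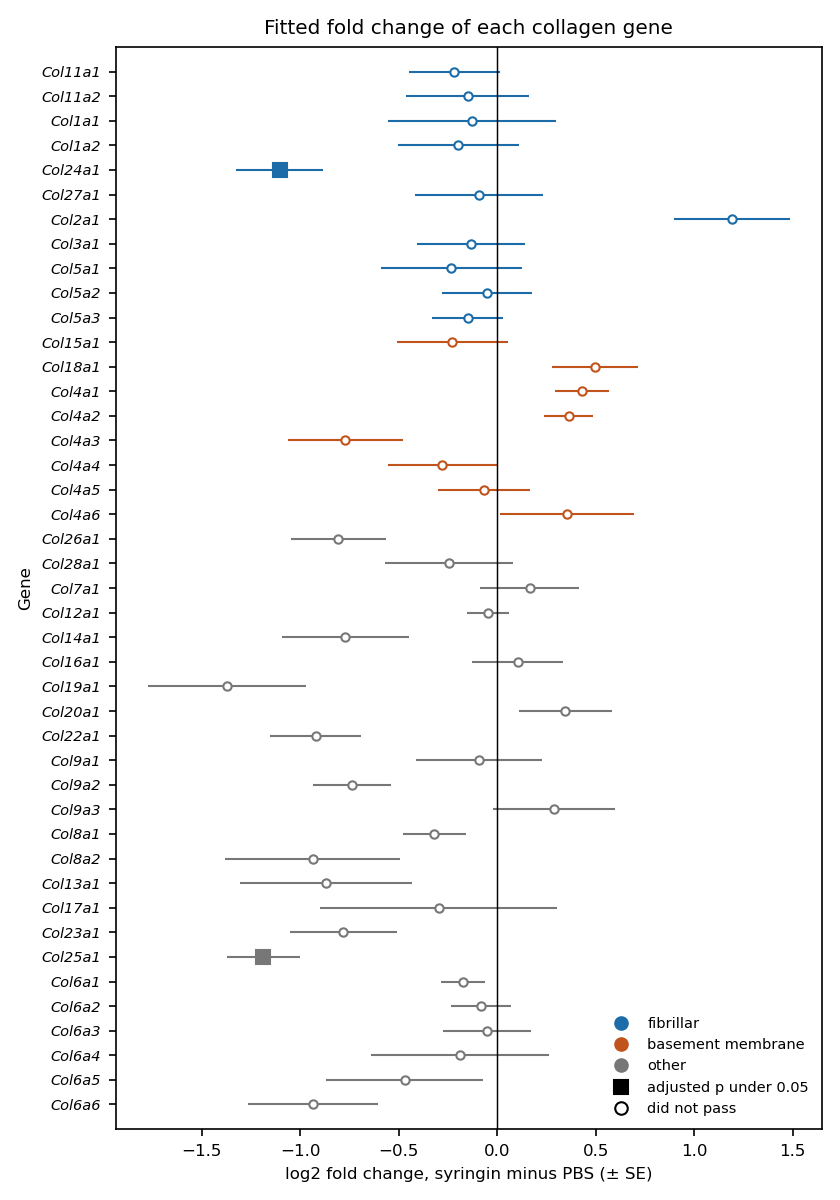
Fitted log2 fold change (syringin minus PBS, horizontal axis, with SE) of each collagen gene, coloured by class; filled squares passed an adjusted p of 0.05 and open circles did not. The 2 squares, Col24a1 and Col25a1, lie below -1, and Col2a1 is the farthest open circle on the positive side, at 1.19.

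Collagen message differed widely between mice of 1 group. On the per-length FPKM scale (fragments scaled by transcript length and library size, as deposited), the 43 genes summed to 330.3, 395.9 and 503.7 in PBS libraries 1, 2 and 3 and to 320.8, 489.6 and 398.3 in syringin libraries 1, 2 and 3. The within-group SD of log2 CPM was above the median of all genes (0.23) for 37 of the 43 members, including all 11 fibrillar ones, and its median over the collagens was 0.39. PBS library 3 was the highest library for 22 members and syringin library 1 the lowest for 19. In order of mean FPKM, Col1a1 (60.5) came first, then Col4a1 (51.0), Col3a1 (50.1), Col4a2 (37.9) and Col1a2 (33.5). These 5 genes held 57.3% of the collagen FPKM, and 13 members had a mean under 1 FPKM. Ranges over the 6 libraries overlapped between each gene and the next in this order, with the exception of Col4a3 and Col17a1.

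**Figure D2:**
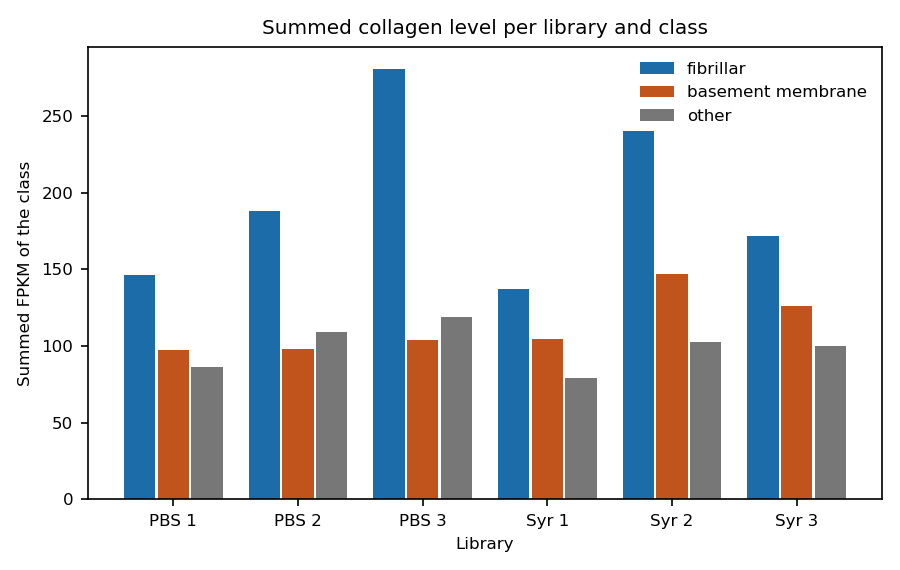
Summed FPKM (vertical axis) of the fibrillar, basement membrane and other collagens in each library. Fibrillar collagens run from 136.9 in syringin library 1 to 281.2 in PBS library 3, while basement membrane collagens lie between 97.5 and 103.6 in the PBS libraries and between 104.5 and 147.1 in the syringin libraries.

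The fibrillar class was led by types I and III, the collagens of ordinary connective tissue fibres. Col1a1 (ENSMUSG00000001506, chromosome 11, 94827050 to 94843868 in the deposited coordinates, whose build is uncertain throughout, since only 3 of 43 starts match a GRCm38 annotation) had 279.1, 396.1 and 679.4 CPM in the PBS libraries and 227.1, 629.4 and 383.9 CPM in the syringin libraries. The groups overlapped almost entirely, with 1 high library in each. Its log2 fold change was -0.13 ± 0.43 (adjusted p = 0.896). Col1a2, which encodes the partner chain of type I collagen, had 331.7, 451.6 and 671.1 CPM with PBS and 290.1, 588 and 389.3 CPM with syringin (-0.20 ± 0.31). Col3a1, the chain of type III collagen (chromosome 1, 45350698 to 45388866), had 392.5, 505.6 and 779.1 CPM with PBS and 425.3, 670.8 and 433 CPM with syringin (-0.13 ± 0.27). Again PBS library 3 and syringin library 2 were the highest. The type V chains Col5a1 and Col5a2, which join type I fibrils and help set their width, followed the same libraries. Col5a1 had 59.4, 82.4 and 132.4 CPM with PBS and 50.05, 111.9 and 71.3 CPM with syringin (-0.23 ± 0.36), and Col5a2 had means of 135.8 ± 38.3 and 131 ± 31.9 CPM (SD, n = 3 mice a group, PBS first here and in each pair of means that follows; -0.05 ± 0.23). PBS library 3 and syringin library 2 were the 2 highest, and PBS library 1 and syringin library 1 the 2 lowest, for these 5 of the 11 fibrillar genes. The 2 low libraries were those with the most sensory ganglion transcripts; the part of surrounding tissue in these levels was not tested, and in bulk tissue fewer cells of a type and less RNA per cell cannot be told apart.

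Col5a3, the remaining type V chain, ran the other way, with 128.3, 103 and 85.6 CPM in the PBS and 112.4, 76.6 and 96.6 CPM in the syringin libraries (-0.15 ± 0.18). It was highest in PBS library 1 and syringin library 1 and lowest in PBS library 3 and syringin library 2. Type XI chains, which sit inside fibrils of cartilage and other tissues, had PBS library 3 and syringin library 3 as their 2 highest libraries. Col11a1 had 59.1, 73.0 and 88.5 CPM with PBS and 43.9, 63.05 and 82.7 CPM with syringin (-0.22 ± 0.23), and Col11a2 had values of 42 ± 12.6 and 37.8 ± 14.5 CPM (-0.15 ± 0.31). Col27a1, a minor fibrillar collagen of cartilage, had 23.2 ± 8.86 and 21.8 ± 6.69 CPM (-0.09 ± 0.33). None of these 4 genes passed, by edgeR, DESeq2 or limma-voom.

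The FPKM ratio of Col1a1 to Col1a2 was 1.59, 1.66 and 1.92 in the PBS libraries and 1.48, 2.03 and 1.87 in the syringin libraries, while Col1a1 CPM differed 2.99-fold between its highest and lowest library. Col1a1, Col1a2, Col5a1 and the basement membrane gene Col15a1 ranked the 6 libraries in the same order. The start regions of 2 of the genes that peaked in the same libraries are shown, because they differ in base composition. Each window runs from 250 bases before to 50 bases after the start of the RefSeq gene (GRCm38.p6, plus strand), chr6:4505368-4505667 for Col1a2 and chr1:45311288-45311587 for Col3a1. Capitals mark every match, on either strand, to the CCAAT box, the GC box (GGGCGG) and the TATA box (TATAAA), none of which overlap here.
Col1a2: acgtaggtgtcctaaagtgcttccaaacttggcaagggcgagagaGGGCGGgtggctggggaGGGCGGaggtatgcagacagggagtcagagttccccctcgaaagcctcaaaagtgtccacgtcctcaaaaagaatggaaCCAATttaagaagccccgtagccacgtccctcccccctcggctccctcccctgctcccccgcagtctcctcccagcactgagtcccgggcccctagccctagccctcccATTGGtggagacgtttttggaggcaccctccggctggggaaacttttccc
Col3a1: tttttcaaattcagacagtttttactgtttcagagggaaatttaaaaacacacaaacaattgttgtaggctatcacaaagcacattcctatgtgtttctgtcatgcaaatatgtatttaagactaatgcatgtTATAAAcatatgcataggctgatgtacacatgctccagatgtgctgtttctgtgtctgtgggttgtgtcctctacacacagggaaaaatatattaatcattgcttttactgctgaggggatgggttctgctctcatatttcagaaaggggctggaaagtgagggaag
The Col1a2 window held 2 CCAAT boxes, 2 GC boxes and no TATA box, at 61% G and C. The Col3a1 window held 1 TATA box and neither of the others, at 37.7% G and C, where the median of all 32851 windows was 52.7%. The CCAAT box occurred in 37.4%, the GC box in 35.7% and the TATA box in 13.6% of all windows of this length; a match is a description of the letters and not a site. RefSeq windows were found for 34 of the 43 members.

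In 2 fibrillar genes (18.2% of the class, against 30% of all genes) the groups did not overlap. Col24a1, a minor fibrillar collagen described mainly in bone (ENSMUSG00000028197, chromosome 3, 144998233 to 145257766), had 7.95, 10.7 and 9.82 CPM in the PBS libraries and 5.07, 3.23 and 4.91 CPM in the syringin libraries. Every PBS value lay above every syringin value, and Col24a1 fell by 1.11 on the log2 scale (SE 0.22, adjusted p = 0.0369). With 1 library fewer, and folds in the range given above, its adjusted p was 0.0661 without PBS library 1, 0.121 without PBS library 2, 0.174 without PBS library 3, 0.066 without syringin library 2 and 0.0807 without syringin library 3. Col2a1, the main collagen of cartilage, showed the opposite pattern, with 9.04, 16.6 and 10.4 CPM with PBS and 23.7, 20.6 and 38.0 CPM with syringin. The groups did not overlap, but the value of 1.19 ± 0.29 missed the threshold (adjusted p = 0.0604). It passed with DESeq2 (adjusted p = 0.00089) and when the libraries were corrected for GC content and length of the transcripts (edgeR adjusted p = 0.0394; 6.14% of all genes passed there, 3.23% as higher). Of 9 other cartilage and bone markers tested, 8 had negative values and Sox9, also made by astrocytes, a value of 0.09. Acan, listed here as a cartilage marker, had means of 14.0 and 10.2 CPM and did not pass, and the source of its transcripts was not tested. The bone gene Ibsp fell (-3.17, from a mean of 1.46 to 0.16 CPM). Over the whole class 1 of 11 genes fell (9.09%, against 3.39% of all genes) and none rose (1.62% of all genes did). The median log2 fold change was -0.15, which turned to 0.13 without PBS library 3 and to 0.01 without syringin library 1 or with the GC and length correction.

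**Figure D3:**
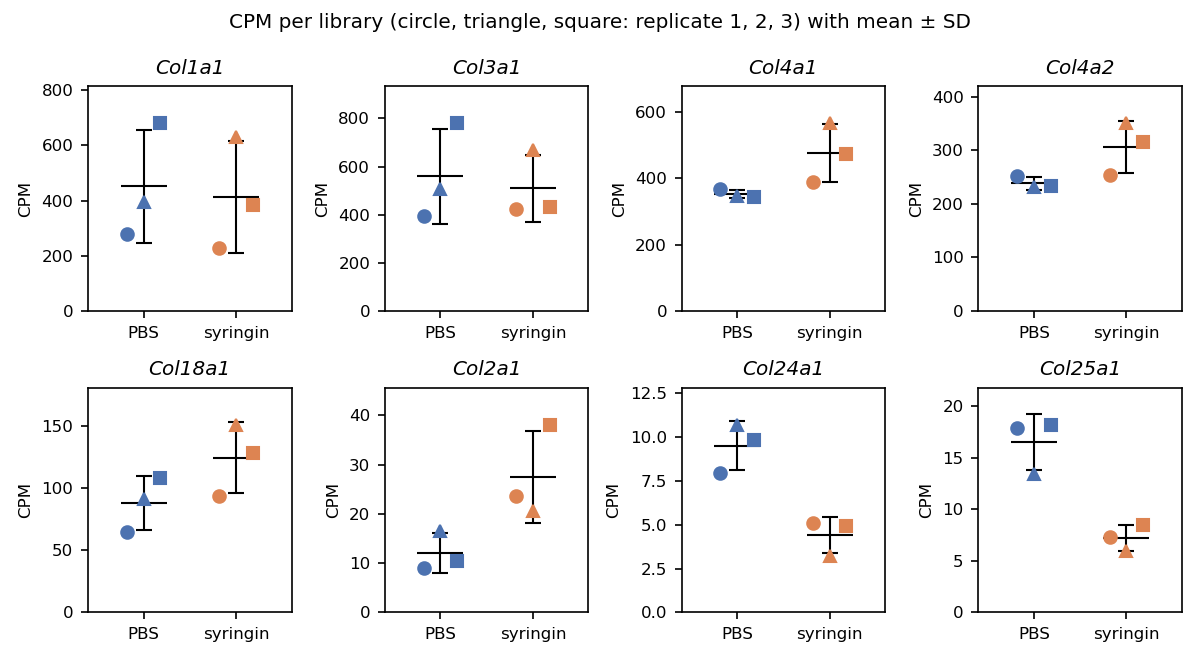
CPM in each library (symbols by replicate number) with the group mean and SD for 8 collagen genes. Col1a1 and Col3a1 overlap between the groups over most of their range, Col4a1, Col4a2 and Col2a1 lie higher with syringin without overlap, Col18a1 overlaps, and Col24a1 and Col25a1 lie lower without overlap.

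Basement membrane collagens were led by Col4a1 and Col4a2, both highest in syringin library 2. The class's summed FPKM was 97.5, 98.1 and 103.6 in the PBS libraries and 104.5, 147.1 and 126.3 in the syringin libraries, so all 3 syringin sums were above all 3 PBS sums. As a share of the collagen FPKM the class made up 29.5%, 24.8% and 20.6% with PBS and 32.6%, 30.0% and 31.7% with syringin. The sum was mostly Col4a1 and Col4a2, the chains of the common type IV network, and no member of the class passed in edgeR (2 higher and 1 lower at an unadjusted p of 0.05) or limma-voom. At that unadjusted p, 11.5% of all genes were higher and 12.1% lower. Col4a1 (ENSMUSG00000031502, chromosome 8, 11248423 to 11362826, minus strand) had 366.2, 347.7 and 345 CPM with PBS and 388.5, 565.2 and 473.4 CPM with syringin. Syringin library 1 lay just above the highest PBS value. The log2 fold change was 0.43 ± 0.14 (adjusted p = 0.111, and 0.0351 by DESeq2). Col4a2 (chromosome 8, 11362805 to 11499287, plus strand) had 252.5, 231 and 232.9 CPM with PBS and 254.5, 350.4 and 315.8 CPM with syringin (0.36 ± 0.13, adjusted p = 0.134). The lowest syringin value was again close to PBS library 1, and without syringin library 1 both genes passed, Col4a1 at an edgeR adjusted p of 0.0261. Their FPKM ratio lay between 1.29 and 1.43.

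Col4a1 and Col4a2 lie head to head, and their start regions are shown because the genes share them. In RefSeq the start sites are 11312826 (Col4a1, minus strand) and 11312805 (Col4a2, plus strand), so the transcripts start within 22 bases of each other and point apart. The windows of 300 bases are chr8:11312777-11313076 for Col4a1 and chr8:11312555-11312854 for Col4a2 (GRCm38.p6), each written along its own strand. Capitals mark the 78 bases that both windows contain, which read as reverse complements.
Col4a1: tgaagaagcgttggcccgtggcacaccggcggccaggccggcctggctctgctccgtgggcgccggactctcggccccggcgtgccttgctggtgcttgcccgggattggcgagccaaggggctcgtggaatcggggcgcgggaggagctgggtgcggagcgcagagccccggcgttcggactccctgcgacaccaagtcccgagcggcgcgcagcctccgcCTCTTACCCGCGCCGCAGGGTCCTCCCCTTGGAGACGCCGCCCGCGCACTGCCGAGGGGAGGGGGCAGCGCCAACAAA
Col4a2: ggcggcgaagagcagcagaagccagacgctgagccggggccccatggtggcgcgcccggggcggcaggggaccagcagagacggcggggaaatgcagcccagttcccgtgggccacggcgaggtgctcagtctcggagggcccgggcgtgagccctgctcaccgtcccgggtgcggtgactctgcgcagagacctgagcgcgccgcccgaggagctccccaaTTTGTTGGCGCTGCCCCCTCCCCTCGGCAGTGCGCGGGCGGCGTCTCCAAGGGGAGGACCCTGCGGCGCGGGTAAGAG
Both windows hold a CCAAT box and at least 1 GC box, and neither holds a TATA box; they are 74% and 73.7% G and C. The other type IV genes are paired in the same way in the deposited table, Col4a3 with Col4a4 at a distance of 71 bases and Col4a5 with Col4a6 at 1308 bases. No source used here gives the strand setting of the counting, so reads from the overlapping first bases of Col4a1 and Col4a2 may not be told apart.

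The rarer type IV chains, which replace the common ones in special basement membranes, differed among themselves. Col4a3 had 1.89, 1.29 and 2.32 CPM with PBS and 1.02, 1.08 and 1.12 CPM with syringin, without overlap (-0.77 ± 0.29, adjusted p = 0.162). Its neighbour Col4a4 had 2.51 ± 0.42 and 2.07 ± 0.53 CPM (-0.28 ± 0.28). Col4a5 had 24.6 ± 6.04 and 23.5 ± 6.17 CPM (-0.07 ± 0.23) and its neighbour Col4a6 8.22 ± 2.91 and 10.5 ± 3.83 CPM (0.35 ± 0.34). Both X-linked genes had PBS library 3 and syringin library 2 as their highest libraries, as the type I genes did.

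Col18a1 and Col15a1 encode collagens that link basement membranes to the tissue around them. Col18a1, whose protein is also the source of the fragment endostatin, had 64.7, 91.3 and 108 CPM with PBS and 93.8, 150.5 and 128 CPM with syringin. PBS library 3 lay above syringin library 1, and the value of 0.50 ± 0.22 did not pass (adjusted p = 0.223). With the replicate number as a block Col18a1 was higher (0.50, edgeR adjusted p = 0.0298). Col15a1 had 29.4, 40.1 and 53.3 CPM with PBS and 23.4, 47.6 and 33.9 CPM with syringin (-0.23 ± 0.28), again in the order of Col1a1. Over the class the median log2 fold change was 0.14, with 4 values above and 4 below 0. That median was 0.28 without syringin library 1, 0.22 without PBS library 3, -0.07 without PBS library 1 and -0.11 without syringin library 2. Endothelial markers, genes of the cells that lie on vascular basement membrane, had 10 positive values of 10. Of these Pecam1 rose (0.58 ± 0.10, where 1.62% of all genes rose), and the other 9 did not pass, down to 0.08 for Flt1. At an unadjusted edgeR p of 0.05, 4 of the 10 were higher, against 11.5% of all genes. The summed FPKM of these markers was 144.7 to 176.3 with PBS and 177.4 to 205.1 with syringin. The part of endothelial RNA in the Col4a1 and Col4a2 values was not tested. Pericyte and smooth muscle markers summed to 177.6 to 205.3 and to 175.5 to 215.2 FPKM.

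**Figure D4:**
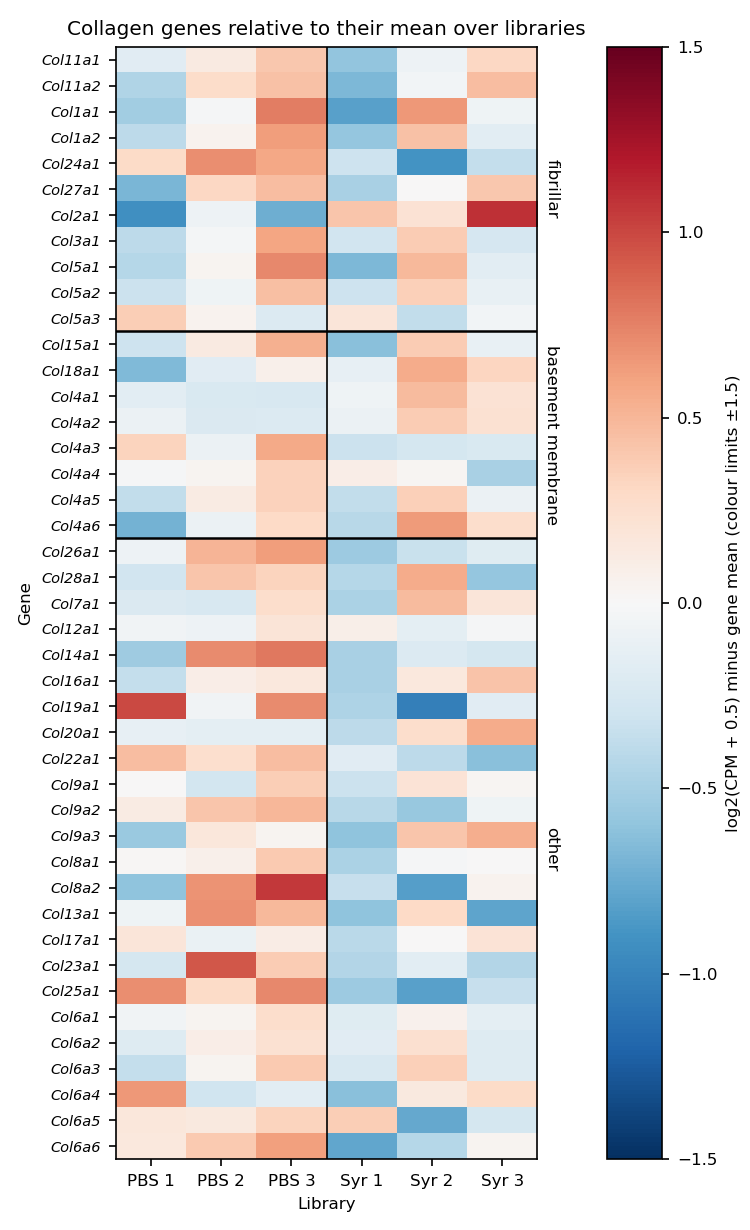
Log2(CPM + 0.5) of each collagen gene in each library minus its mean over the 6 libraries (colour), with genes grouped by class and PBS libraries to the left of the vertical line. Most fibrillar rows are red in PBS library 3 and blue in PBS library 1 and syringin library 1, and the Col4a1 and Col4a2 rows are blue in the PBS libraries and red in syringin libraries 2 and 3.

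Among the other 24 collagens 1 gene fell (4.17%, against 3.39% of all genes), none rose (1.62% of all genes did) and 20 values were negative (median -0.31, and -0.155 without syringin library 1). At an unadjusted edgeR p of 0.05, 8 of the 24 were lower and 0 higher, where 12.1% and 11.5% of all genes were. In 7 of the 24 the groups did not overlap, all lower with syringin (29.2%, against 15.3% of all genes). The gene that fell was Col25a1 (ENSMUSG00000058897, chromosome 3, 129925150 to 130389970), which encodes a transmembrane collagen made by neurons. It had 17.9, 13.4 and 18.2 CPM with PBS and 7.30, 5.97 and 8.48 CPM with syringin. The lowest PBS value was well above the highest syringin value, and Col25a1 fell by 1.19 on the log2 scale (SE 0.19, adjusted p = 0.0203). Its adjusted p was 0.0607 without PBS library 1 and 0.129 without PBS library 3, at folds of -1.12 and -1.11. In the same libraries the synaptic gene Snap25 and Slc6a5, which encodes a glycine transporter of inhibitory neurons, fell (-0.93 ± 0.20 and -1.18 ± 0.10), and the neuronal nuclear marker Rbfox3 had 62 ± 13.2 and 31.1 ± 9.82 CPM (-0.997 ± 0.25, edgeR adjusted p = 0.0601). Rbfox3 was called lower by DESeq2 and with the replicate number as a block. The part of neuronal RNA in the Col25a1 value was not tested. The remaining transmembrane collagens had negative values that did not pass: Col23a1 had 20.6, 47.7 and 32.4 CPM with PBS and 18.25, 22.2 and 18.15 CPM with syringin (-0.78 ± 0.27), Col13a1, known from the neuromuscular junction, 2.56 ± 0.77 and 1.40 ± 0.82 CPM (-0.87 ± 0.44), and Col17a1, a component of hemidesmosomes in skin, was under 1 CPM in every library.

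Fibril-associated collagens decorate fibrils rather than forming them, and none of the 9 passed in edgeR (4 were lower at an unadjusted p of 0.05, against 12.1% of all genes) or limma-voom, while DESeq2 called 3 lower, against 8.13%. The most abundant per length were Col16a1, Col12a1 and Col9a3. Col16a1 had 126.6, 173.6 and 181.2 CPM with PBS and 116, 181.9 and 219.2 CPM with syringin (0.10 ± 0.23). Col12a1, which binds type I fibrils, had the smallest ratio of highest to lowest CPM among the 43 members, with 151.6 ± 16.3 and 146.7 ± 11.7 CPM and a ratio of 1.26 (-0.05 ± 0.11). Its relative Col14a1 had 9.84, 24.0 and 25.5 CPM with PBS and 10.2, 12.5 and 12.0 CPM with syringin (-0.77 ± 0.32, adjusted p = 0.197), so PBS library 1 lay below all syringin libraries. Without PBS library 1 Col14a1 was lower in edgeR's test (adjusted p = 0.0366).

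Type IX collagen coats type II fibrils and is built from the products of Col9a1, Col9a2 and Col9a3, whose values differed in sign. Col9a2 had 8.06, 9.97 and 10.6 CPM with PBS and 5.39, 4.78 and 7.01 CPM with syringin, without overlap (-0.74 ± 0.20, adjusted p = 0.076). Col9a3 had 18, 30.15 and 27.5 CPM with PBS and 17.4, 35.7 and 39.2 CPM with syringin (0.29 ± 0.31). The FPKM ratio of Col9a2 to Col9a3 was 0.56, 0.41 and 0.48 with PBS and 0.39, 0.17 and 0.22 with syringin, so that all PBS ratios were above all syringin ratios, while Col9a1 had 1.63 ± 0.48 and 1.53 ± 0.36 CPM (-0.09 ± 0.32). Col19a1 and Col22a1 were scarce and did not overlap between the groups. Col19a1, which some neurons make, had 5.02, 2.17 and 4.045 CPM with PBS and 1.504, 0.86 and 1.97 CPM with syringin (-1.37 ± 0.40, adjusted p = 0.0928). Col22a1, known from tendon-muscle junctions, had 3.999, 3.40 and 4.02 CPM with PBS and 2.42, 1.99 and 1.62 CPM with syringin (-0.92 ± 0.23, adjusted p = 0.0621). With the replicate number as a block, Col9a2, Col19a1 and Col22a1 passed as lower. Col20a1 had 9.21 ± 0.11 and 11.7 ± 3.78 CPM (0.35 ± 0.24).

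Type VI collagen forms beaded filaments beside basement membranes and is built from Col6a1 and Col6a2 with a longer chain such as Col6a3. Col6a1 had 93.4, 100.1 and 116.5 CPM with PBS and 85.6, 101.7 and 87.6 CPM with syringin (-0.17 ± 0.11, adjusted p = 0.405). Col6a2 had 85.2 ± 12.6 and 80.3 ± 14.2 CPM (-0.08 ± 0.15), and Col6a3 57.2 ± 14.9 and 55.1 ± 13.5 CPM (-0.05 ± 0.22). The ratio of Col6a1 to Col6a2 FPKM lay between 2.00 and 2.48 in all libraries. Col6a4, Col6a5 and Col6a6, neighbours on chromosome 9, were each under 4 CPM (Col6a4 -0.19 ± 0.45, Col6a5 -0.47 ± 0.40), and of these Col6a6 did not overlap between the groups (2.24, 2.72 and 3.25 CPM with PBS and 0.94, 1.33 and 2.03 CPM with syringin, -0.94 ± 0.33, adjusted p = 0.14).

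The last members belong to small classes. Col8a1, which forms hexagonal networks and is known from vessel walls, had 50.9, 52.7 and 65.8 CPM with PBS and 35.8, 49.6 and 50.3 CPM with syringin, just without overlap (-0.32 ± 0.16, adjusted p = 0.273). Its partner Col8a2 had 3.31, 8.77 and 11.6 CPM with PBS and 4.06, 2.79 and 5.51 CPM with syringin (-0.94 ± 0.44). Col7a1, the collagen of anchoring fibrils, had 18.4 ± 3.86 and 20.7 ± 6.62 CPM (0.16 ± 0.25). Col26a1 had 4.61, 7.16 and 7.78 CPM with PBS and 3.17, 3.77 and 4.23 CPM with syringin, without overlap (-0.81 ± 0.24, adjusted p = 0.0979; lower with the replicate number as a block). Col28a1, a collagen of peripheral nerve, had 18.4, 30.3 and 28.6 CPM with PBS and 16.7, 33.65 and 14.95 CPM with syringin (-0.24 ± 0.32). Its 3 highest libraries were PBS libraries 2 and 3 and syringin library 2, which were the 3 with the fewest sensory ganglion transcripts.

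Markers of cells that can carry collagen differed between the groups and between mice. Fibroblast and meningeal markers had 10 negative values of 12. Lower were Ptgds, a prostaglandin D synthase gene listed here as a meningeal marker, and the microfibril gene Mfap5 (-1.49 ± 0.20 and -1.05 ± 0.22). Which cells the Ptgds transcripts came from was not tested. The summed FPKM of the 12 markers was 332.5 to 481.9 with PBS and 150 to 253.5 with syringin. Ptgds made up most of the PBS sums, and the other 11 markers summed to 119.2 to 206.1 and to 85.1 to 144.4 FPKM, with overlap. Schwann cell markers had 9 negative values of 10, and summed to 198.8 to 641.3 FPKM with PBS and 115.9 to 180.1 with syringin. None of the markers in either list was at 0. Infiltrating macrophage markers had 10 positive values of 10, and 5 rose, where 1.62% of all genes did. The lists were chosen with earlier results of these data known, so such counts are not an independent test. The macrophage markers summed to 1900 to 2293 FPKM with PBS and 2852 to 6793 with syringin. Spp1 made up most of these sums, and the other 9 markers summed to 397.6 to 474 and to 793.2 to 1212.3 FPKM, without overlap. Of the 12 sensory ganglion markers 11 were tested and none passed in edgeR (0 also at an unadjusted p of 0.05), DESeq2 or limma-voom; their summed FPKM was 8.45 to 86.6 with PBS and 5.26 to 70.9 with syringin, and Scn10a and Mrgprd were at 0 in PBS library 3 and syringin library 2. The part of these cells in the collagen values was not tested. With mean ganglion marker level as a covariate, where edgeR called 12% of all genes, 1 collagen was higher (Col18a1) and 4 were lower (Col19a1, Col22a1, Col24a1 and Col25a1), against 5.39% and 6.59% of all genes. With the mean of the Schwann cell markers as a covariate, added after the data were seen, edgeR called no gene at all (3229 had an unadjusted p under 0.05); the list median of these markers did not overlap between the groups, so in that fit marker level and treatment cannot be told apart.

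**Figure D5:**
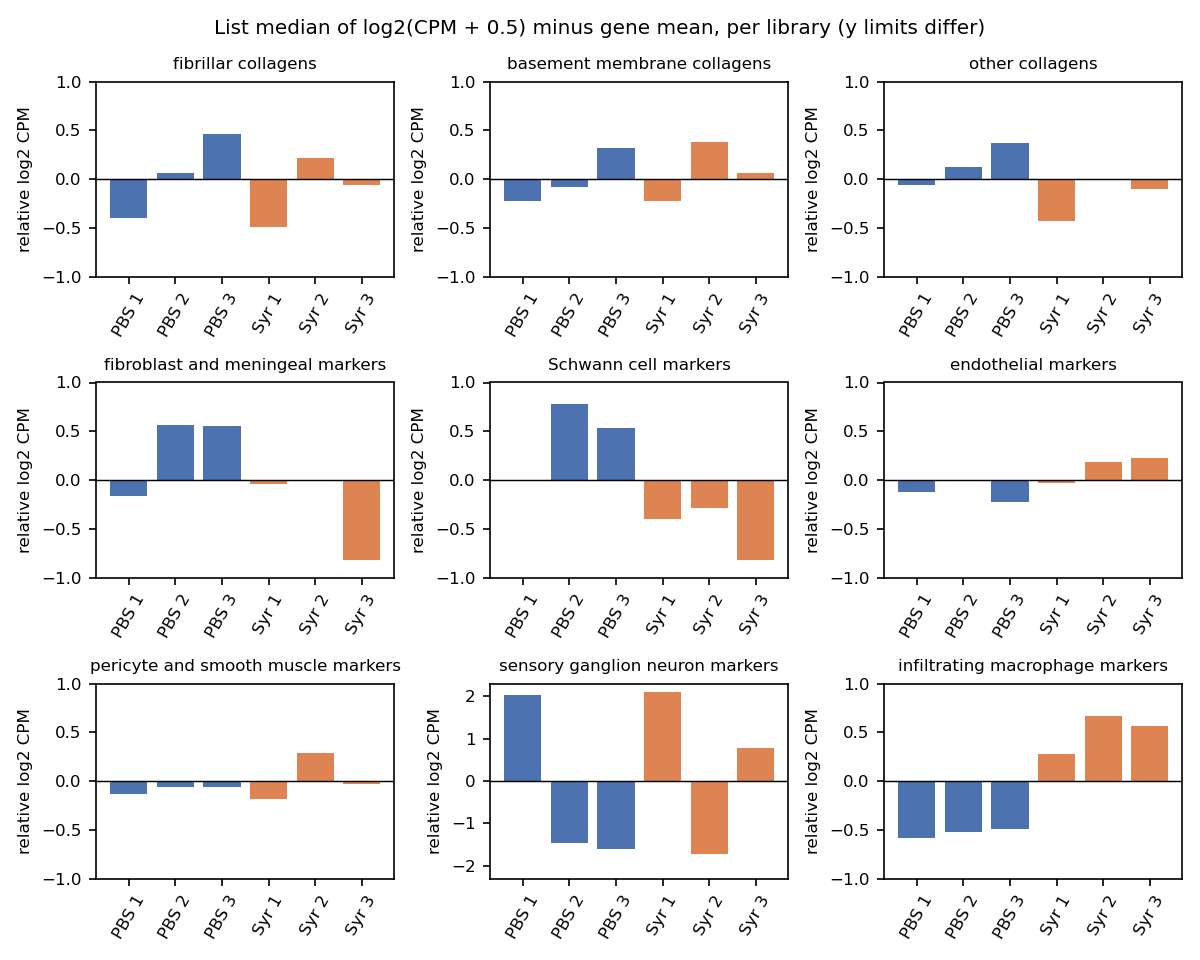
Median over each gene list of log2(CPM + 0.5) minus the gene's mean over the 6 libraries, for the collagen classes and 6 lists of cell type markers; blue bars are PBS and orange bars syringin libraries. The fibrillar bars run from -0.49 in syringin library 1 to 0.46 in PBS library 3, whereas the Schwann cell bars are lower in all syringin libraries and the macrophage bars higher.

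Genes that make, cut, bind and degrade collagen were taken as lists of 9 to 19 tested genes. Of all genes tested, edgeR called 1.62% higher and 3.39% lower, and 11.5% and 12.1% were so at an unadjusted p of 0.05. The shares called higher and lower were 6.29% and 8.13% in DESeq2 and 4.8% and 6.76% with the replicate number as a block. Of 19 genes for folding and modification, 2 rose and none fell (median 0.20): P4hb, a subunit of the prolyl hydroxylase that stabilises the helix, went from 462 ± 5.32 to 650.7 ± 74.8 CPM (0.49 ± 0.11, adjusted p = 0.0418), and Plod3, a lysyl hydroxylase, from 104.1 ± 6.94 to 145.9 ± 16.4 CPM (0.49 ± 0.11). P4hb is also protein disulfide isomerase, which folds many other secreted proteins. Serpinh1, the collagen chaperone HSP47, had 156.3 ± 48.9 and 191.2 ± 57.3 CPM (0.29 ± 0.28), P4ha1 a value of 0.27 and Plod2 of 0.12, none of which passed. DESeq2 and the replicate block also called Crtap of this list higher (0.41 ± 0.12, adjusted p = 0.0937 in edgeR without the block). Among 13 genes of propeptide cleavage and crosslinking none passed in edgeR (4 higher and 0 lower at an unadjusted p of 0.05). DESeq2 and the replicate block called Adamts14 and Bmp1 higher, and limma-voom Adamts14. The propeptide protease Adamts14 had 0.71 ± 0.16 (edgeR adjusted p = 0.0504), the procollagen protease Bmp1 had 0.46 ± 0.13 and the crosslinking enzyme Lox -0.28 ± 0.14. None of the 9 tested collagen receptors passed, and 5 values were positive. The integrin chain gene Itgb1 and the collagen-binding kinase gene Ddr1 had 0.33 ± 0.12 and 0.31 ± 0.10, both higher without overlap, with Ddr2 at -0.15, Itga11 at -0.44 and the uptake receptor Mrc2 at -0.23; at an unadjusted edgeR p of 0.05, 2 were higher and 1 lower, and DESeq2 and limma-voom called none. Of 9 genes of degradation the neutrophil collagenase Mmp8 rose from 9.83 ± 0.45 to 17.1 ± 3.75 CPM (0.80 ± 0.18, adjusted p = 0.0462; not called by limma-voom), and 5 values were positive and 4 negative. Mmp14 and the inhibitor Timp1 had values of 0.41 and 0.47, and the collagenase Mmp13 one of -1.73 ± 0.60 (adjusted p = 0.133), with PBS library 1 far above the rest; DESeq2 called Mmp8 and Timp1 higher and Mmp13 lower, and the block Mmp8 higher and Mmp13 lower. The 10 collagen-binding and basement membrane partners held none that passed in edgeR (1 higher and 0 lower at an unadjusted p of 0.05) or limma-voom and 1 higher in DESeq2, with Dcn at -0.55, Fn1 at 0.26 and Sparc at -0.21. With the replicate number as a block, 1 partner was lower, Fmod. Tgfb1, the growth factor known for inducing collagen, was the 1 gene of 11 in its list that rose (47.9 ± 5.08 to 74.4 ± 11.8 CPM, 0.64 ± 0.14, adjusted p = 0.0424), beside Col1a1 and Col3a1 values of -0.13 for both.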

How the data were processed

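Spinal cord RNA of 6 contused mice was sequenced from stranded polyadenylated libraries, per the labels. The submitters' processing notes name HISAT2, StringTie and the build GRCm38 (mm10). The authors deposited 1 table with an estimated count (whole numbers, so rounding changed nothing) and an FPKM value, scaled by transcript length and library size, per gene and library. Gene coordinates are as deposited. Only 3 of the 43 collagens have the start given by GENCODE M21 (GRCm38), while 36 have the same span length. Most therefore lie at other positions than in the named build. Which build they follow is uncertain, and they are not joined to the RefSeq coordinates.

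Counts were scaled by TMM, filtered with filterByExpr (minimum count 10, minimum total 15) and fitted with edgeR 4.0.16 (robust quasi-likelihood, treatment as the only term, R 4.3.3); adjusted p-values are over all 22114 genes, two-sided, with a threshold of 0.05. The SE was derived from the fold change and its F statistic. CPM are TMM-scaled. DESeq2 1.42.0 (no adjusted p for 3442 genes) and limma 3.58.1 were alternatives; further settings are compared in the closing part. No 2 libraries were alike within counting noise.

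Deviations from the group means of libraries with the same replicate number correlated at 0.435, 0.229 and 0.101, each over the 0.1 taken as the limit for pairing, but PBS library 3 correlated more with syringin library 2 (0.209) than with its own number. The labels do not say what a number shares. The reported values are from the fit without the block, as designed; blocked calls are given beside them where they differ.

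The members and lists were chosen with earlier results of these data known. Named genes were all fibrillar and basement membrane members, members that passed, the most abundant of each other class, and list genes that passed or were fixed as examples; other collagens and markers were named after their values were seen.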

Additional observations from a re-analysis of the deposited data

How the results depend on the processing

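Each library was left out in turn, and the scaling (RLE, upper quartile, none), the filter, the tool, robust estimation, counts divided by 4 and the corrections below were varied. The 2 lower and 0 higher collagens were the same under RLE, upper-quartile and no composition factors, limma-voom, no robust estimation, both other filters and counts divided by 4. DESeq2 called 3188 genes, with 2 collagens higher and 8 lower. With the replicate number as a block (pairing) 2557 genes, 1 higher and 6 lower collagens passed, and the block ended neither call. The ganglion covariate gave 2649 genes, 1 higher and 4 lower collagens. Limma on log2(FPKM + 0.1) gave 707 genes and 1 lower collagen, Col25a1. Correction for length and GC content gave 1 higher collagen and 2 lower; among all called genes the share of higher ones was 52.7% in place of 32.4%. Leaving out 1 library gave 0 to 1944 called genes, 0 to 2 higher and 0 to 3 lower collagens. The class medians then ran from -0.38 to 0.13 (fibrillar), -0.11 to 0.28 (basement membrane) and -0.425 to -0.155 (other), so the first 2 changed sign. Of the settings added after the data were seen, without PBS library 3, DESeq2 called 1455 genes with 1 higher and 2 lower collagens, and limma-voom 0 genes (3532 at an unadjusted p under 0.05) and 0 lower collagens. The Schwann covariate left 0 genes (3229 unadjusted) and 0 lower collagens, with class medians of 0.596 (fibrillar), 0.478 (basement membrane) and -0.02 (other). The cause of these differences was not tested. Collagens under 4 CPM, such as Col4a3 or Col6a4, rest on few fragments, and changes there may not be detectable at this depth.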
